A study of Homo sapiens with 12 samples.

Results

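Polyamine metabolism was followed through 10 genes, chosen by name for their role in making, breaking down or controlling the polyamines: ODC1, AMD1, SRM, SMS, SAT1, SMOX, PAOX, OAZ1, OAZ2 and AZIN1. All 10 were among the 18668 genes listed in the deposited table and among the 17702 that were tested. The cells were 22Rv1, a human prostate cancer line described in the labels as androgen-independent and wild type, grown in medium with 10% serum. Cultures received vehicle, the prostate cancer drug enzalutamide, a ligand that activates autophagy or a degrader that the labels describe as targeting the androgen receptor. RNA was taken 24 h later from 3 biologically independent cultures per group. The labels gave no doses, so each comparison between compounds is one at unknown concentrations. All groups share this 1 cell line and this 1 time point.

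Polyamines are small positively charged molecules that bind nucleic acids and are needed for growth. Ornithine decarboxylase turns ornithine into putrescine, and spermidine synthase and spermine synthase then extend putrescine to spermidine and spermidine to spermine, with aminopropyl groups that S-adenosylmethionine decarboxylase provides. Acetylation by spermidine/spermine acetyltransferase marks polyamines for export or for oxidation back to shorter forms. Antizymes bind ornithine decarboxylase and send it to the proteasome, antizyme inhibitor frees it, and much of this control acts on translation and protein stability, which RNA-seq does not measure. The prostate is known for making and secreting large amounts of polyamines.

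The promoters of the synthesis genes that were lower with the degrader are shown first, because 3 of these genes, ODC1, SRM and SMS, were lower against each of the other groups. Of the 10 genes, 7 matched the RefSeq promoter table of GRCh38.p14, and SMOX, PAOX and AZIN1 were not matched. Each stretch holds the 250 bases before an annotated start, 5′ to 3′ on the gene's strand, and capitals mark an E-box, CACGTG, the core to which many basic helix-loop-helix factors bind. The read counts were made on GRCh37, so these positions describe the reference and locate no read.
ODC1, minus strand, chr2:10448328-10448577: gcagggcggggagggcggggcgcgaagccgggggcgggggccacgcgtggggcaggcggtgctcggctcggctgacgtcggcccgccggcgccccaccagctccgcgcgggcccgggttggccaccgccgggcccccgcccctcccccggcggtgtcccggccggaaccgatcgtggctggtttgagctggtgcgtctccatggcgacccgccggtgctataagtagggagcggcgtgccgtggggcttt
SRM, minus strand, chr1:11060019-11060268: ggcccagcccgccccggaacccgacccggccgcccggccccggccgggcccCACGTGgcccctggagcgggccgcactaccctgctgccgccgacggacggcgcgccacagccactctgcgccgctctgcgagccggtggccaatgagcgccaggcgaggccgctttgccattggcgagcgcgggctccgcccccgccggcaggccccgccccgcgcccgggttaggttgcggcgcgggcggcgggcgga
SMS, plus strand, chrX:21940459-21940708: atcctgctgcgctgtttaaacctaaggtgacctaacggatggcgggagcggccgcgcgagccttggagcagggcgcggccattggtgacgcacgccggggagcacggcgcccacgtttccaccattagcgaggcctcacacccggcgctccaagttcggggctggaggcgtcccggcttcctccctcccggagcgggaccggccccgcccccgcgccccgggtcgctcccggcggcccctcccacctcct
ODC1 has a second annotated start, 315 bases downstream of the one above, with an E-box 29 bases before it, on the minus strand.
ODC1 second start, chr2:10448026-10448051: gggccccgggCACGTGtgcggcgcgc
The SRM promoter holds its E-box 199 bases before the start, and the SMS stretch holds none. Over the 10 windows of the 7 matched genes, 2 held CACGTG, a palindrome that reads alike on both strands, against 6.34% of all 35116 promoter windows of this length. No member window held TGATGNAA (C/EBP-ATF response element, 3.14% of all windows), TCACNCCAC (sterol regulatory element, 0.883%) or AGAACA followed after any 3 bases by TGTTC (palindromic steroid response element, 0.0114%), searched on both strands. The member windows were 66.4 to 82.4% G and C (median 72.8%), above the median of 58% over all windows. A letter match describes the window and is not evidence of binding.

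The 12 libraries held 55.5 to 77.2 M counted reads. All 6 markers of prostate luminal epithelium were listed, and all had a lower mean with the degrader than with vehicle, for example KRT8 at 463.7 against 769 CPM, KRT18 at 407 against 475, KLK2 at 33.7 against 70.6 and EPCAM at 80.2 against 81.8. Their summed level was 1623.8 to 1775.4 CPM with vehicle, 1435.3 to 1574.4 with enzalutamide, 1500.3 to 1640.3 with the ligand and 1149.3 to 1258.4 with the degrader, and its part in the differences of the polyamine genes was not tested. These marker CPM values carry no TMM scaling. None of 3 basal, 3 endothelial and 3 leukocyte markers was listed, and of 3 fibroblast markers COL1A1 (9.66 to 12.7 CPM) and DCN (0.137 to 0.655 CPM) were. The summed fibroblast markers spanned 11 to 11.4 CPM with vehicle, 11 to 12.9 with enzalutamide, 10.8 to 11.3 with the ligand and 9.79 to 11.6 with the degrader. As a check of the treatments, the androgen-responsive genes KLK3, KLK2 and FKBP5 were lower with the degrader than with vehicle. Their log2 differences were -0.92, -1.09 and -1, where 16.4% of all tested genes were called lower. Their TMM-scaled means were also lower with enzalutamide than with vehicle, at 16.9 against 21.4, 53.2 against 71 and 386.8 against 921.8 CPM. With the degrader these means were 11.2, 33.5 and 459.5 CPM, so FKBP5 was lower with enzalutamide than with the degrader. Without TMM scaling, KLK3 and KLK2 also had lower means with the ligand than with vehicle, at 19.1 against 21.2 and 56.7 against 70.6 CPM. The first library stood apart from the other 2 in the vehicle, enzalutamide and degrader groups, where libraries 2 and 3 were the most alike pair, but not in the ligand group, where they were the least alike. Among the members, OAZ1 was highest in library 1 in 4 of 4 groups, ODC1, SRM, SAT1 and OAZ2 in 3, and AMD1 and AZIN1 were lowest there in 3. The part of this difference in the results was not tested, but every call was repeated without the first libraries.

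Per transcript length, the genes spanned more than 2 orders of magnitude. On the FPKM scale, which corrects for length and depth, OAZ1 led with 436.3 ± 29.3 FPKM in vehicle (mean ± SD, n = 3), followed by AMD1 at 185.5 ± 6.88, ODC1 at 130.7 ± 3.55 and SRM at 81.2 ± 3.25. AZIN1 (46.5 ± 2.43 FPKM) and SMS (42.7 ± 2.27) came next and their vehicle libraries overlapped. SAT1 (28 ± 0.832) and OAZ2 (28 ± 1.29) also overlapped, while PAOX (4.7 ± 0.115) and SMOX (1.2 ± 0.0885) were the lowest. OAZ1 stood at the 99.4th percentile of all listed genes, ODC1 at the 97.8th and SMOX at the 32.7th. The rate-limiting synthesis gene ODC1 was thus 4.67 times as abundant per length as the acetyltransferase gene SAT1, and OAZ1 was 15.6 times as abundant as its paralogue OAZ2. In the 3 treated groups AZIN1 and SMS did not overlap: AZIN1 was at 42.3 to 48.5 FPKM and SMS at 38.8 to 41.9 with enzalutamide, 43.1 to 49.9 and 39.1 to 41.5 with the ligand, and 49.5 to 53.7 and 31.2 to 32.3 with the degrader.

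**Figure D1:**
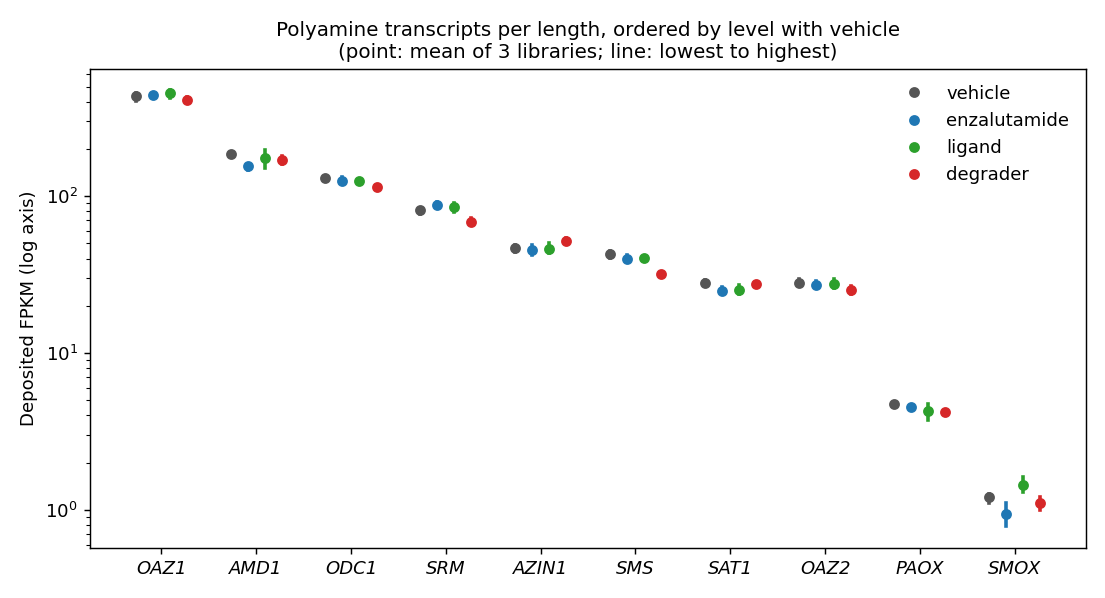
Level per transcript length (FPKM, log axis) of each polyamine gene by treatment, from the values deposited by the authors. Points are means of 3 libraries, and lines run from the lowest to the highest library. OAZ1, AMD1 and ODC1 were the most abundant and SMOX, near 1.2 FPKM in vehicle, the least.

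Of the 4 synthesis enzymes, 3 were lower with the degrader than with vehicle, where 16.4% of all tested genes were called lower, and the same 3 were lower in all 3 comparisons of the degrader, where 10.7% were. SMS, which encodes spermine synthase and takes the last step of the route, had the largest difference of the 10 genes between the degrader and vehicle. Its CPM (read count relative to the scaled library total) was 81, 83.4 and 76.9 with vehicle, 74.2, 77.5 and 74.7 with enzalutamide, 78.1, 74.9 and 75.8 with the ligand, and 58.8, 60.4 and 60.6 with the degrader. All degrader libraries lay below all 9 others, while the other 3 groups lay close together. Groups that do not overlap were common in this experiment: 45.2% of all tested genes showed no overlap between degrader and vehicle, 38.7% between degrader and ligand, 46.4% between degrader and enzalutamide, 17.1% between enzalutamide and vehicle and 11.3% between ligand and vehicle. Among the 10 polyamine genes these numbers were 6, 4, 8, 3 and 2. SMS fell by 0.42 on the log2 scale against vehicle (SE 0.05, 95% interval -0.52 to -0.33, edgeR adjusted p = 3e-06), a level 25.5% lower. It also fell by 0.35 against the ligand (adjusted p = 3.59e-05) and by 0.33 against enzalutamide (adjusted p = 4.15e-05), and it was called under 12 of 12 alternative analyses in all 3 comparisons. In bulk RNA, a lower level in every cell and a lower share of cells that express the gene cannot be told apart, here and in all comparisons.

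SRM encodes spermidine synthase, the enzyme one step earlier. It stood at 116.7, 113.9 and 109 CPM with vehicle, 129.1, 117.3 and 121.8 with enzalutamide, 117.2, 128.5 and 110.3 with the ligand, and 101.8, 92 and 93 with the degrader. The degrader libraries again lay below all others, the enzalutamide libraries lay just above all vehicle libraries, and the ligand libraries overlapped with both. SRM fell by 0.24 (SE 0.06, -0.37 to -0.12, adjusted p = 0.00486) against vehicle, by 0.31 against the ligand (adjusted p = 0.000986) and by 0.36 against enzalutamide (adjusted p = 0.00022). It too was called under 12 of 12 alternatives in each. With enzalutamide its difference from vehicle was 0.12 (-0.01 to 0.24, adjusted p = 0.553), so a rise of up to that bound could not be told from none.

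ODC1 encodes ornithine decarboxylase, the first and rate-limiting enzyme of the route. Its levels were 364.1, 360 and 350.4 CPM with vehicle, 338.9, 355.9 and 335.9 with enzalutamide, 351.8, 344.5 and 334 with the ligand, and 317.9, 316.2 and 307.2 with the degrader. The degrader libraries were the lowest, without overlap, and the gene was one of the tightest between replicates, with a median CV of 2.29%. ODC1 fell by 0.19 against vehicle (SE 0.04, -0.28 to -0.1, adjusted p = 0.0018), a level 12.4% lower, and this was called under 12 of 12 alternatives. Against the ligand and against enzalutamide it fell by 0.13 in each case (adjusted p = 0.0249 and 0.0217). These calls were less firm. Against the ligand the adjusted p was 0.0761 without degrader replicate 3, 0.0924 without ligand replicate 1, 0.05 without ligand replicate 2 and 0.067 in a fit of the 2 groups alone. Against enzalutamide it was 0.0505 without degrader replicate 2, 0.0815 without degrader replicate 3 and 0.091 without enzalutamide replicate 2. With the first libraries left out, the 2 values were 0.12 and 0.0593.

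AMD1, which encodes S-adenosylmethionine decarboxylase, the source of the aminopropyl groups, moved in another way. It was at 675.2, 698.6 and 728.2 CPM with vehicle, 562.4, 593.8 and 604.4 with enzalutamide, 655.9, 580.1 and 745.6 with the ligand, and 608.6, 630.9 and 681.7 with the degrader. The enzalutamide libraries lay below all vehicle and all degrader libraries, whereas the ligand libraries spread widely (CV 12.5%). The log2 difference between enzalutamide and vehicle was -0.26 (SE 0.07, -0.41 to -0.11) with an edgeR adjusted p of 0.111. The call depended on the analysis: the adjusted p was 0.0415 by DESeq2, 0.00895 in an edgeR fit of only these 2 groups and 0.00224 with a replicate block, over a range of 0.00224 to 0.521 across the alternatives. The degrader differed from vehicle by -0.13 (-0.28 to 0.02, adjusted p = 0.179) and from enzalutamide by 0.13 (adjusted p = 0.194). Both of these fell under the threshold with a replicate block only (adjusted p = 0.0312 and 0.0403).

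**Figure D2:**
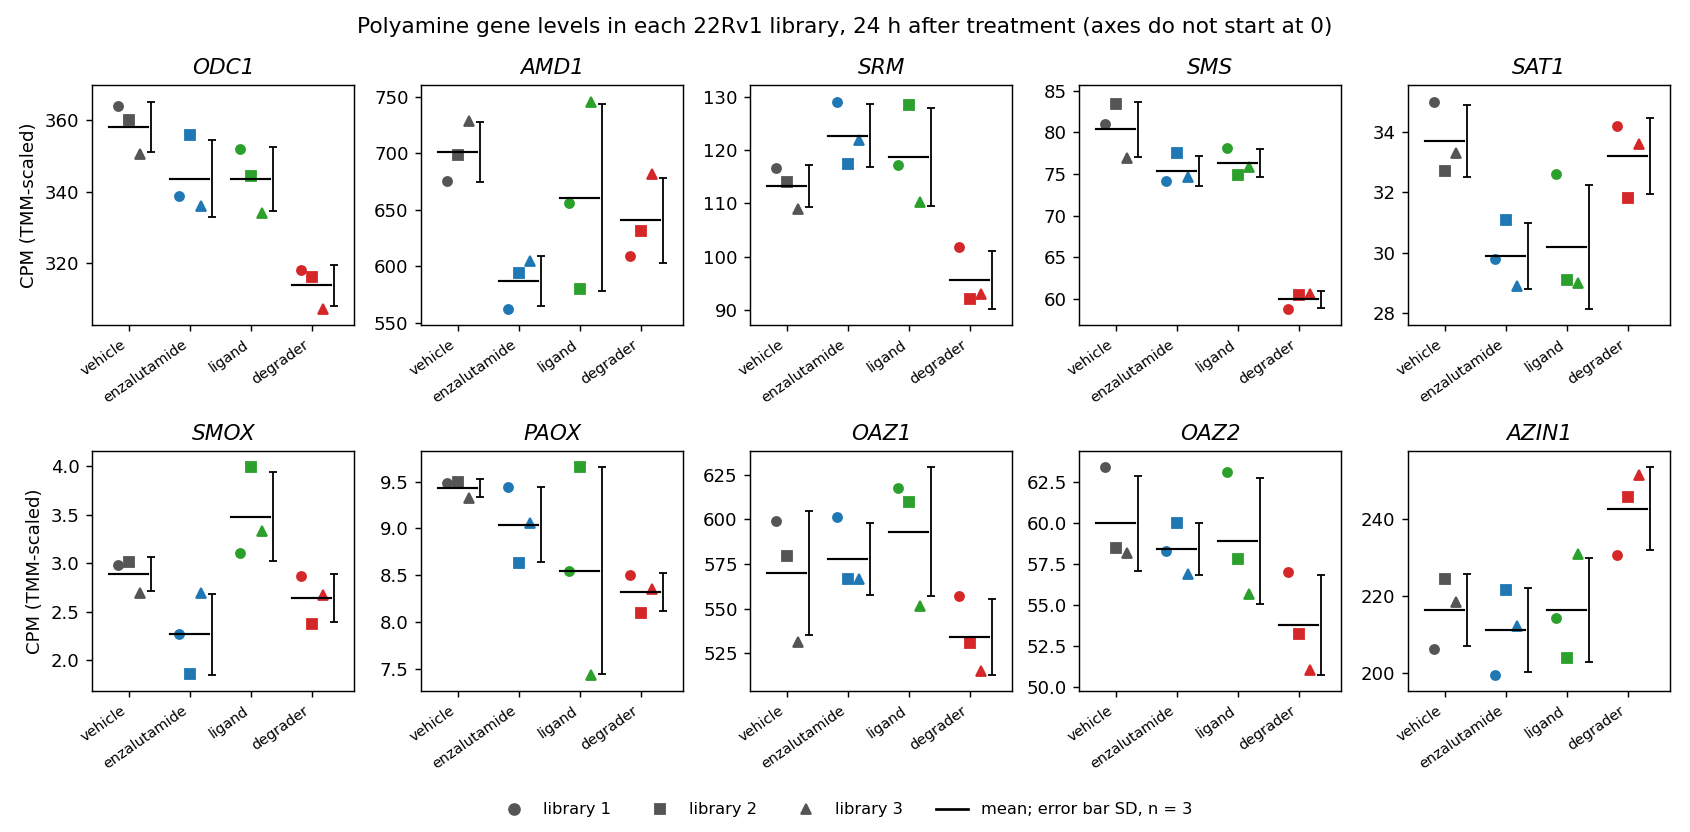
TMM-scaled CPM of each polyamine gene in each library by treatment, with a line at the mean and a bar for the SD of 3 libraries. The axes do not start at 0, and the symbols mark libraries 1, 2 and 3. For SMS, SRM and ODC1 the 3 degrader libraries lie below all other libraries.

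Of the genes that control ornithine decarboxylase, the antizyme inhibitor gene AZIN1 was higher with the degrader. It stood at 206.1, 224.4 and 218.5 CPM with vehicle, 199.5, 221.5 and 212.2 with enzalutamide, 214.1, 203.9 and 230.9 with the ligand, and 230.7, 245.8 and 251.5 with the degrader. The degrader libraries lay above all vehicle and enzalutamide libraries, and the lowest of them was just under the highest ligand library. AZIN1 rose by 0.17 against vehicle (SE 0.06, 0.05 to 0.28, edgeR adjusted p = 0.0301), a level 12.2% higher, by 0.17 against the ligand (adjusted p = 0.0337) and by 0.2 against enzalutamide (0.08 to 0.32, adjusted p = 0.0106). The size of the difference held under the 12 alternatives, at 0.13 to 0.2 against vehicle, 0.13 to 0.21 against the ligand and 0.16 to 0.24 against enzalutamide, but its call was often lost. Against vehicle the adjusted p was 0.0934 without degrader replicate 2, 0.115 without degrader replicate 3, 0.123 without vehicle replicate 1, 0.0547 without vehicle replicate 3 and 0.0549 without the first libraries.

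Against the ligand the AZIN1 value was 0.114 without degrader replicate 2, 0.146 without degrader replicate 3, 0.0958 without ligand replicate 1, 0.134 without ligand replicate 2 and 0.0649 in a fit of the 2 groups alone. Against enzalutamide it was 0.0528 without degrader replicate 3 and 0.0595 without enzalutamide replicate 1. Within groups, AZIN1 and SRM were the pair of members whose levels moved most against each other. With the group means removed, deviations of AZIN1 over the 12 libraries had r = -0.9 with those of SRM, -0.77 with OAZ1 and 0.83 with AMD1. Those of AMD1 had r = -0.87 with both SRM and PAOX and -0.8 with OAZ1, and those of SRM and PAOX had 0.86. Deviations of ODC1 and OAZ2 had r = 0.81, and those of SAT1 and OAZ2 0.8. These correlations describe libraries that share depth and handling and carry no test, and SRM and AZIN1 moved apart between the degrader and the other groups as they did between libraries of 1 group. The part of this library pattern in the SRM and AZIN1 differences was not tested beyond leaving libraries out.

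The antizyme genes gave smaller values. OAZ2, whose level was 63.4, 58.5 and 58.2 CPM with vehicle and 57, 53.2 and 51 with the degrader, fell by 0.16 (SE 0.06, -0.28 to -0.03, adjusted p = 0.0485). Its groups did not overlap, but the call sat at the threshold. The adjusted p was 0.124 without degrader replicate 2, 0.17 without degrader replicate 3, and 0.195, 0.0692 and 0.0551 without vehicle replicates 1, 2 and 3, and 0.0891 without the first libraries. Against the ligand (63.1, 57.8 and 55.7 CPM) and enzalutamide (58.3, 60 and 56.9 CPM) the OAZ2 differences were -0.13 (adjusted p = 0.111) and -0.12 (adjusted p = 0.138). The first of these passed without ligand replicate 3 (0.04), and both passed with a replicate block (0.0246 and 0.0331).

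OAZ1, the main antizyme gene and the most abundant transcript of the 10 per length, stood at 599.2, 579.5 and 531.3 CPM with vehicle, 601.2, 566.4 and 566.4 with enzalutamide, 617.8, 609.7 and 551.8 with the ligand, and 557, 531.1 and 515 with the degrader. Vehicle and degrader libraries overlapped, and the difference was -0.09 (-0.21 to 0.02, adjusted p = 0.216, or 0.0341 with a replicate block). Against the ligand it was -0.15 (SE 0.06) with an adjusted p of 0.051, which passed under 6 of 12 alternatives, among them those without degrader replicate 1 (0.0406) and without ligand replicate 3 (0.00834). Against enzalutamide it was -0.11 (adjusted p = 0.131, or 0.0102 with a replicate block).

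None of the 3 breakdown genes passed the edgeR test between the degrader and vehicle, where 32.7% of all tested genes passed. DESeq2 called none of the 3 either, and none had an unadjusted edgeR p under 0.05. SAT1, the acetyltransferase that starts polyamine breakdown, was at 35, 32.7 and 33.3 CPM with vehicle, 29.8, 31.1 and 28.9 with enzalutamide, 32.6, 29.1 and 29 with the ligand, and 34.2, 31.8 and 33.6 with the degrader. The degrader and vehicle libraries overlapped (difference -0.02, -0.15 to 0.11, adjusted p = 0.832), so a change of more than 0.15 in either direction lay outside the interval. The enzalutamide and the ligand libraries lay below all vehicle libraries, with differences of -0.17 (-0.3 to -0.05, adjusted p = 0.265) and -0.16 (-0.28 to -0.03, adjusted p = 0.571) that did not pass. The degrader was at 0.15 against enzalutamide (0.03 to 0.28, adjusted p = 0.0615, or 0.0253 with a replicate block). Against the ligand it was at 0.14 (0.01 to 0.26, adjusted p = 0.102, or 0.0335 without ligand replicate 1 and 0.045 with a replicate block).

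SMOX encodes spermine oxidase, which turns spermine directly back into spermidine, and it was the scarcest and most variable gene (median CV 11.4%). Its levels were 2.98, 3.01 and 2.69 CPM with vehicle, 2.27, 1.86 and 2.69 with enzalutamide, 3.11, 3.99 and 3.33 with the ligand, and 2.87, 2.37 and 2.67 with the degrader. All ligand libraries lay above those of the other groups, and one of the ligand libraries stood well above its replicates. The degrader was lower than the ligand by a log2 difference of -0.4 (SE 0.14, -0.7 to -0.1, adjusted p = 0.0424), the only SMOX comparison to pass. That call was lost without ligand replicate 2 (0.192), degrader replicate 2 (0.154), degrader replicate 3 (0.0798) or the first libraries (0.053). Against vehicle the SMOX differences were -0.34 with enzalutamide (-0.65 to -0.04, adjusted p = 0.42), 0.27 with the ligand (-0.03 to 0.56, adjusted p = 0.731) and -0.13 with the degrader (-0.43 to 0.17, adjusted p = 0.509).

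PAOX encodes the oxidase that acts on acetylated polyamines. It was at 9.48, 9.49 and 9.32 CPM with vehicle, 9.44, 8.63 and 9.06 with enzalutamide, 8.55, 9.65 and 7.44 with the ligand, and 8.5, 8.1 and 8.35 with the degrader. The degrader libraries lay below the vehicle libraries, but the difference of -0.18 (-0.36 to 0) had an adjusted p of 0.12. The ligand libraries spread over the whole range of the other groups.

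**Figure D3:**
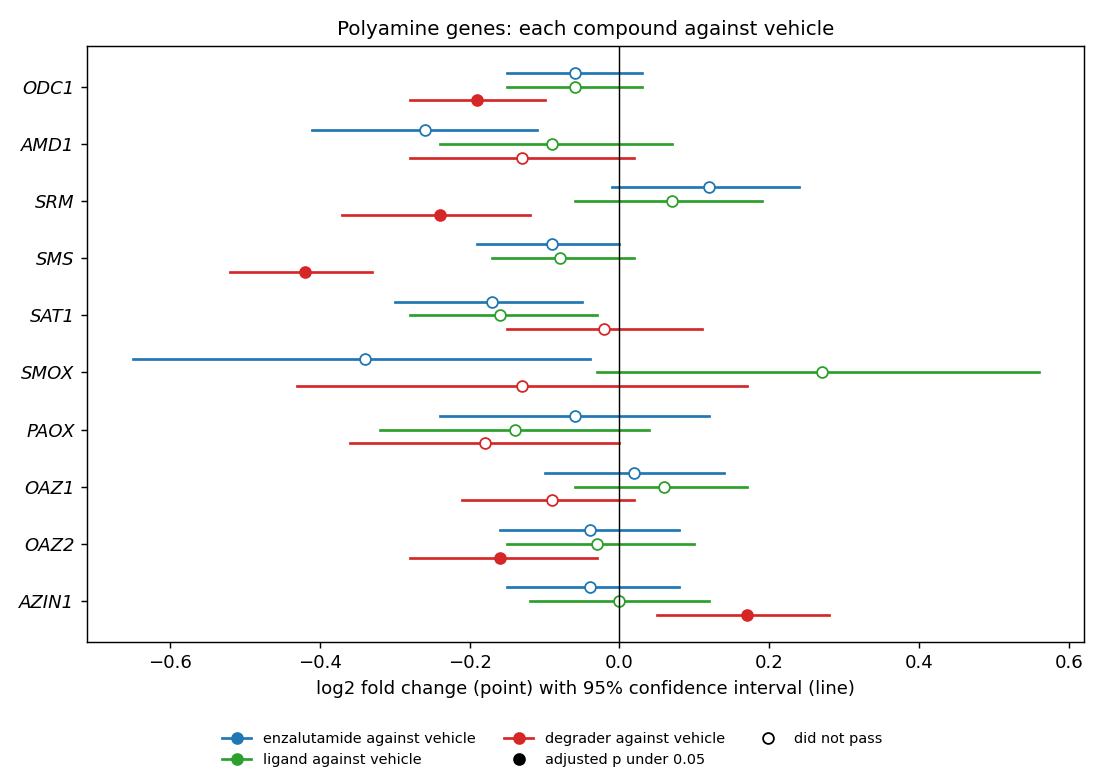
Log2 fold change of each polyamine gene against vehicle for the degrader, the ligand and enzalutamide, with 95% intervals from edgeR. SMS, SRM, ODC1 and OAZ2 lie below 0 and AZIN1 above 0 with the degrader, and no gene passed the adjusted threshold with the other compounds.

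Counted together, 5 of the 10 genes passed between the degrader and vehicle, 4 lower and 1 higher, where 32.7% of all tested genes passed (16.4% in each direction). Against the ligand 5 passed, 4 lower and 1 higher, against a background of 28.5% (14.3% higher and 14.2% lower), and against enzalutamide 4 passed, 3 lower and 1 higher, against 32.3% (16.3% higher and 16.1% lower). The median log2 difference from vehicle with the degrader was -0.15 over the 10 genes and 0.01 over all tested genes. Of the 10 values 9 were negative, beside 8687 of the 17702 over all tested genes. Some of the 10 genes varied together between libraries of 1 group, so these signs are not independent. No member passed with the ligand, where 0.237% of all genes did (0.203% higher and 0.0339% lower), and 1 had an unadjusted p under 0.05; DESeq2 called none either. No member passed in edgeR with enzalutamide, where 1.44% of all genes did (0.35% higher and 1.09% lower), while 3 had an unadjusted p under 0.05 and DESeq2 called 1. ODC1, SRM and SMS were lower than in each of the other 3 groups and AZIN1 higher, where 10.7% of tested genes were lower and 10.5% higher in all 3 comparisons. The 3 comparisons share the degrader libraries and are not independent of each other.

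**Figure D4:**
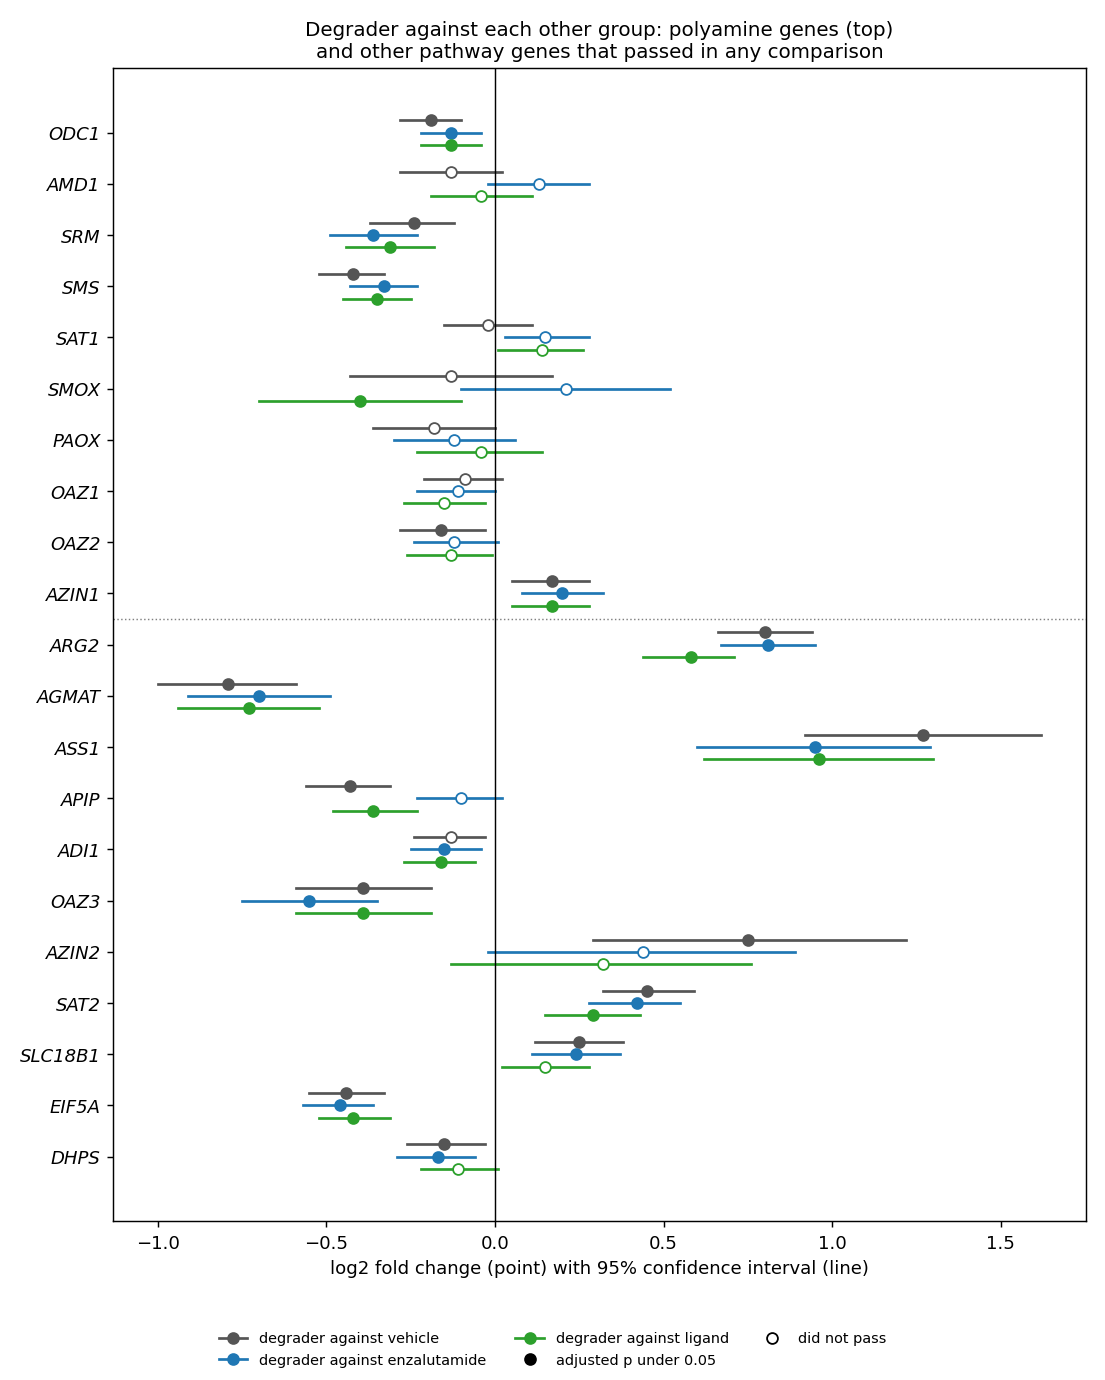
Log2 fold change of each polyamine gene in the degrader group against vehicle, ligand and enzalutamide, with 95% intervals from edgeR. Below the dotted line are other pathway genes, shown because they passed in at least 1 comparison. The 3 comparisons share the degrader libraries. SMS, SRM and ODC1 lie below 0 and AZIN1 above 0 in all 3.

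The rest of the pathway was followed in 28 further genes, of which 25 were tested. With the degrader 5 rose and 5 fell against vehicle, where 32.7% of all tested genes were called (16.4% in each direction), and their median log2 difference was -0.02. Of 7 genes that supply arginine, ornithine and S-adenosylmethionine, ARG2, the mitochondrial arginase that makes ornithine, rose by 0.8 (12.6 to 21.9 CPM, adjusted p = 1.1e-07). ASS1, which makes the arginine precursor argininosuccinate, rose by 1.27 (1.95 to 4.72 CPM, adjusted p = 1.95e-05). The ASS1 level is uncertain because its pseudogenes ASS1P13 and ASS1P2 held 59.9% and 8.4% as many reads, and reads may be shared among such copies. AGMAT, which encodes an agmatinase-like hydrolase, fell by 0.79 (4.38 to 2.53 CPM, adjusted p = 1.24e-05).

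Of the 4 genes for hypusine, a modified lysine made from spermidine in the translation factor eIF5A, 2 fell and none rose, where 16.4% of all tested genes fell and 16.4% rose. EIF5A itself fell by 0.44 (906.2 to 666.1 CPM, adjusted p = 6.27e-06). DHPS, the enzyme that transfers the spermidine part, was lower by a log2 difference of -0.15 (adjusted p = 0.0489). That call was lost without degrader replicate 2 or 3 (0.159 and 0.127), without vehicle replicate 1, 2 or 3 (0.161, 0.0725 and 0.0805) and without the first libraries (0.148). Of the 5 methionine salvage genes, which recycle the by-product of both aminopropyl transfers, APIP fell by 0.43 (32.5 to 24.1 CPM, adjusted p = 3.93e-05). APIP was also the only pathway gene to pass with enzalutamide, at -0.33 (25.9 CPM, adjusted p = 0.00587), which became 0.051 without enzalutamide replicate 3 and 0.184 without the first libraries.

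Among the relatives of the members, SAT2 rose by 0.45 (26.1 to 35.7 CPM, adjusted p = 5.6e-05), the antizyme gene OAZ3 fell by 0.39 (6.33 to 4.82 CPM, adjusted p = 0.00412), and the second antizyme inhibitor gene AZIN2 rose by 0.75. AZIN2 was scarce (0.684 to 1.14 CPM, adjusted p = 0.0141), and its adjusted p was 0.0727 without degrader replicate 2, 0.0646 without vehicle replicate 1 and 0.136 without the first libraries. Of 6 transport genes, SLC18B1, a vesicular polyamine transporter, rose by 0.25 (16 to 19.1 CPM, adjusted p = 0.00436). No pathway gene passed with the ligand by edgeR or DESeq2, and 3 had an unadjusted p under 0.05.

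Against the ligand, 3 of these 25 genes were higher with the degrader and 5 lower, beside 14.3% and 14.2% of all tested genes. Against enzalutamide 4 were higher and 5 lower, beside 16.3% and 16.1%. ARG2, ASS1 and SAT2 were higher and EIF5A, OAZ3 and AGMAT lower in all 3 comparisons of the degrader, as were 10.5% and 10.7% of all tested genes. EIF5A differed by -0.42 against the ligand and -0.46 against enzalutamide, and ARG2 by 0.58 and 0.81. ADI1, a salvage enzyme, was lower by a log2 difference of -0.16 against the ligand (adjusted p = 0.0223) and -0.15 against enzalutamide (adjusted p = 0.0314). Both ADI1 calls were lost without degrader replicate 2 (0.0659 and 0.0953) or 3 (0.0723 and 0.111). The first was also lost without ligand replicate 1 (0.117), without the first libraries (0.0858) and in a fit of the 2 groups alone (0.0515). The second was also lost without enzalutamide replicate 1 (0.124) or 2 (0.0908) and without the first libraries (0.0865). Against vehicle ADI1 was at -0.13 (adjusted p = 0.051), which passed under 6 of 12 alternatives, among them DESeq2 (0.0288) and the one without degrader replicate 1 (0.0385). DHPS was lower than with enzalutamide by a difference of -0.17 (adjusted p = 0.0212), which became 0.0852 and 0.0688 without degrader replicates 2 and 3, 0.0735 without enzalutamide replicate 1 and 0.0708 without the first libraries. APIP, which differed from the ligand by -0.36, was at -0.1 against enzalutamide (adjusted p = 0.209).

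Genes whose levels ran most like those of ODC1 over the 12 libraries were SARNP (Pearson r = 0.983), HDAC2 (0.978) and YARS2 (0.969), among 10119 genes with a mean of at least 10 CPM. For SAT1 the nearest were RNR1 (r = 0.878), IST1 (0.876) and CNOT8 (0.874). All these pairs share libraries and the treatment groups, and the values are a description only.

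In the authors' deposited table, which gives a signed linear fold change and an adjusted p per compound, the same 5 of the 10 genes were under 0.05 for the degrader. It lists SMS at -1.35 (1.83e-18), SRM at -1.19 (0.000834), ODC1 at -1.15 (1.44e-05), OAZ2 at -1.12 (0.0301) and AZIN1 at 1.12 (0.026). The authors' deposited table has no member under 0.05 for the ligand and 1, AMD1, for enzalutamide, at -1.19 with an adjusted p of 0.0371.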

How the data were processed

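RNA-seq libraries were made with a stranded mRNA kit, per the labels, and the strand setting used in counting was not given. The submitters' processing notes name HISAT2, StringTie and the build GRCh37, without versions. The table that the authors deposited holds raw read counts and FPKM values per gene and library, per the file headers. It lists only genes with at least 1 read in every library. It also holds the authors' score, which is a linear fold change with a minus sign for a fall, and a deposited adjusted p-value per compound.

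Library totals were 55.5 to 77.2 M reads. Replicates differed by a chi-square of 5.48 to 22.4 per degree of freedom over all tested genes together, so they spread more than counting alone would give. This sum does not describe each scarce gene, and the part of counting was not separated for SMOX (113 to 284 reads) or AZIN2 (39 to 101 reads). Counts were filtered with filterByExpr (minimum count 10, total 15), which kept 17702 genes and left out 966. They were TMM-scaled (factors 0.987 to 1.016) and fitted with edgeR 4.0.16 glmQLFit (robust) on all 12 libraries, 8 residual degrees of freedom, and tested with glmQLFTest in 5 comparisons. All p-values were Benjamini-Hochberg adjusted over all tested genes, with calls under 0.05 and no fold minimum. CPM is TMM-scaled, log2 CPM used a prior count of 2, and FPKM served only to compare levels between genes. Intervals are 95%. R 4.3.3, limma 3.58.1 and DESeq2 1.42.0 were used. The fit was also run on simulated data, and the outcome of that run is not reported here.

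Alternatives were DESeq2, RLE size factors, no filter, a fit of the 2 groups compared, a replicate block and each replicate left out. Leaving out the first library of every group was added after the data were seen. Named were all 10 members, pathway genes called in any comparison, the 3 genes most like ODC1 and SAT1, and KLK3, KLK2 and FKBP5. The members and lists were chosen with earlier results of these data known. Protein sequences were not analysed here.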

Additional observations from a re-analysis of the deposited data

How the results depend on the processing

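SMS and SRM passed in all 3 degrader comparisons, and ODC1 against vehicle, under all 12 alternatives each. Over the member results, 529 of the values under alternatives kept direction and side of the threshold, 31 lost the call, 19 gained it and 21 changed by sign without a call. No called value changed sign. The number of members higher with the degrader became 0 against vehicle without the first libraries, 0 against the ligand in a fit of these 2 groups, and 2 against the ligand and 3 against enzalutamide with a replicate block. Leaving out 1 replicate gave 0 to 1 in each of these. The number lower became 2 against the ligand without the first libraries and 5 against enzalutamide with the block. With the block, AMD1 (edgeR adjusted p = 0.0312) and OAZ1 (0.0341) were also called lower than with vehicle. Likewise, OAZ1 (0.00151) and OAZ2 (0.0246) were then called lower than with the ligand. Leaving out 1 replicate gave 3 to 4, 2 to 6 and 2 to 3 lower against vehicle, ligand and enzalutamide. With enzalutamide against vehicle, DESeq2, the fit of 2 groups and the block each made 1 member lower, and leaving out a replicate 0.

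Over all genes, enzalutamide calls were 62 higher and 193 lower, against 117 higher by DESeq2, 154 and 399 with the block, 32 to 45 and 141 to 173 leaving out a replicate, and 21 and 115 without the first libraries. Ligand calls were 36 and 6, against 98 and 23 by DESeq2, 21 higher in the fit of 2 groups, 125 and 66 with the block, 19 to 70 and 2 to 7 leaving out a replicate, and 22 and 1 without the first libraries. Degrader calls above the ligand went from 2535 to 1656 without the first libraries. The pathway genes lower than with enzalutamide went from 5 to 3 without the first libraries (3 to 6 leaving out a replicate), and those lower with enzalutamide than vehicle from 1 to 0 (0 to 1). Fewer samples enter the fits that leave libraries out; the cause of the other differences was not tested.

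To look for a pairing, the group mean of each gene was removed from log2 CPM and the remaining deviations were correlated between libraries. Over all tested genes, deviations of same-numbered libraries correlated at 0 to 0.21 between degrader and vehicle and 0.06 to 0.15 between enzalutamide and vehicle. In no comparison were all 3 pairs over 0.1, so the numbers were not taken as a pairing. Over all tested genes, every enzalutamide and vehicle library still correlated best with its own number in the other group. Over genes with a mean log2 CPM over 2, these pairs reached 0.28 to 0.57, all over 0.1. Whether the numbers are taken as a pairing bears on AMD1 with enzalutamide. AMD1 passed under the replicate block (edgeR adjusted p = 0.00224) and not in the main fit without it (0.111). Among the members, SMOX had the lowest levels (1.86 to 3.99 CPM) and the widest intervals.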
